A study of Mus musculus with 14 samples.

Results

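The genes described here are 42 interferon-stimulated genes of mouse ear skin, out of 24035 genes in the deposited expression table. They were chosen by symbol, as well-known targets of interferon signalling. They fall into 10 type I-like members (the Oas, Ifit and Mx genes), 7 gamma-like members (4 Gbp genes, Cxcl9, Irgm1 and Igtp) and 25 others. Of the 42, 41 passed the filter on low values used for testing, and Ifi44, which ranged from 0.0760 to 1.27 TPM, did not. The data were mRNA-seq of whole ears, and the study's labels contrast long-term with short-term loss of Langerhans cells, which are the resident antigen-presenting cells of the epidermis.

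The first group was LC-DTA ears painted with croton oil (n = 4), in which diphtheria toxin A, driven by the human langerin promoter, removes Langerhans cells throughout life, and the second was LC-DTA ears painted with vehicle (n = 3). The third was LC-DTR ears painted with croton oil (n = 4), from mice whose langerin-expressing cells carry the diphtheria toxin receptor and were depleted with diphtheria toxin 3 days earlier, and the fourth was LC-DTR ears painted with vehicle (n = 3). Each ear received 20 µl of acetone and olive oil at 4 to 1, with or without 1% croton oil, a skin irritant, and was taken 6 h later. All 4 groups are therefore models of Langerhans cell loss, and no ear with an intact Langerhans cell network was analysed here. The age of the animals is not given in the sources used here. Cd207, the gene for langerin, was low in all of them, at 0.405 to 0.722 TPM in LC-DTA croton oil ears, 0.0567 to 0.654 TPM in LC-DTA vehicle ears, 0.362 to 1.88 TPM in LC-DTR croton oil ears and 0.105 to 0.474 TPM in LC-DTR vehicle ears. Of the other Langerhans cell markers listed, Ly75 was also low, at 0.186 to 0.602 TPM over all samples. Epcam, at 196 to 610 TPM, and Cd1d1, at 3.04 to 18.6 TPM, were not, so the markers do not measure the loss. The values were TPM, a level scaled by transcript length and library total. The 42 members together held 0.0242 to 0.0633% of a sample. The depth behind the values is unknown. Whether each sample is a different animal is not stated in the labels, and p-values therefore measure the spread between these samples only.

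Interferons are secreted proteins that switch on antiviral programmes. Type I interferons bind the receptor made of Ifnar1 and Ifnar2 and act through a complex that includes Stat2 and Irf9 and binds the interferon-stimulated response element (ISRE). Interferon gamma binds Ifngr1 and Ifngr2 and acts through the gamma-activated site (GAS), and it also induces Irf1, which reads ISRE-like elements. The classes overlap: most members can respond to either kind of interferon, so the class names describe typical inducers and not a source in these ears.

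The promoters of 6 members are shown as examples of how the motifs lie, chosen after the matches were seen: Oas1a, Oas3 and Trim30a among members that rose with croton oil in LC-DTA ears, Gbp7 and Igtp as gamma-like members with both motifs, and Irf1 as a GAS example, with ISRE letters (GAAA, any 2 bases, then GAAA, on either strand) and GAS letters (TTCNNNGAA, the same on both strands) in capitals. Each is the 110 bases before an annotated start on the gene's own strand, 5′ to 3′, from RefSeq on build GRCm38.p6. Trim30a and Irf1 each have a further annotated start whose 250 bases hold neither motif, and the start with a match is shown. The span is chr5:120907526-120907635 (minus strand) for Oas1a and chr5:120777660-120777769 (minus) for Oas3. It is chr7:104465194-104465303 (minus) for Trim30a and chr3:142530226-142530335 (plus) for Gbp7. It is chr11:58199446-58199555 (plus) for Igtp and chr11:53769904-53770013 (plus) for Irf1. None of these stretches overlaps an annotated GENCODE exon, except for 2 bases of the Oas3 one.
Oas1a: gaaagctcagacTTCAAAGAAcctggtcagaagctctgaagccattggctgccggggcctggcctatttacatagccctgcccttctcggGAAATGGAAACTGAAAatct
Oas3: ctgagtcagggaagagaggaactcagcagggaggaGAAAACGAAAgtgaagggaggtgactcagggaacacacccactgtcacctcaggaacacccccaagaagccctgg
Trim30a: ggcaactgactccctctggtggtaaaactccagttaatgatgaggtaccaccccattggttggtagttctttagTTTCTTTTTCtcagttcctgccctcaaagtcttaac
Gbp7: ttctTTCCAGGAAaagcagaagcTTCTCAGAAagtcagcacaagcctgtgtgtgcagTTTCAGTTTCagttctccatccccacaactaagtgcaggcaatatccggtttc
Igtp: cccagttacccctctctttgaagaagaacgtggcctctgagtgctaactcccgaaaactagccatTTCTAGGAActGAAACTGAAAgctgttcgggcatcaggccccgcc
Irf1: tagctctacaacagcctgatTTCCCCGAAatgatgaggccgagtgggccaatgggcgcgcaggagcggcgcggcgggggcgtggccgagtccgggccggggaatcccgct

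The Oas1a stretch holds a pair of overlapping ISRE matches starting 20 and 14 bases before the start and a GAS match at 98 bases. Igtp and Gbp7 each hold both motifs, Oas3 and Trim30a only an ISRE match, and Irf1 only a GAS match. In the 250 bases before any of their annotated starts, 16 of the 32 members with a promoter entry had an ISRE match. Of all 27025 genes with such an entry, measured here or not, 936 had one (3.46%). By class the members with a match were 4 of 7 type I-like, 6 of 7 gamma-like and 6 of 18 others. A GAS match was found in 9 of 32 members (28.1%), against 8.13% of all genes with an entry. Both were found in 5 of 32, against 0.400% of all genes with an entry. A match is a description of the letters and not evidence of binding, and the remaining 10 members were not in the promoter table.

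In LC-DTA ears, croton oil raised the 2-5A synthetases and a few further antiviral genes, while the gamma-like genes did not pass the test. Of 41 members tested with limma across all 14693 genes, 9 were higher and 3 lower in croton oil than in vehicle ears, or 29.3%, against 58.7% of all genes called in either direction (24.2% higher and 34.5% lower). The median member difference was 0.16 on the log2(TPM + 1) scale, against -0.09 over all genes. In LC-DTR ears the same treatment gave 3 higher and 6 lower members, or 22.0%, against 51.6% of all genes (22.1% higher and 29.5% lower), with a median member difference of -0.07 against -0.06 over all genes. In both genotypes the share of members called was thus below that of the table as a whole. The counts here and below include Oas3, which passed the filter only through the LC-DTA croton oil ears, where it is high.

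The genotype contrast after croton oil called more members, all of them higher in LC-DTA ears. Their share was near that of all genes called in either direction and above that of all genes called higher. There, 23 of 41 members were higher in LC-DTA than in LC-DTR ears and 0 were lower, or 56.1% called, beside 52.3% of all genes in either direction, 34.3% higher and 18.0% lower. The median member difference was 0.56, against 0.09 over all genes. Under vehicle 6 members were higher in LC-DTA than in LC-DTR ears and 0 lower, or 14.6%, beside 24.5% of all genes (19.1% higher and 5.34% lower). The croton oil response differed between the genotypes for 4 members, all with a higher value in LC-DTA, or 9.76%, beside 23.1% of all genes (10.5% higher and 12.6% lower). These comparisons share groups of samples, so their counts are not independent. Diphtheria toxin treatment is described here only for the LC-DTR mice. Sample numbers in the labels run from 10575 to 10797 in LC-DTA ears and from 10825 to 11098 in LC-DTR ears. Genotype, toxin treatment and any batch that follows these numbers therefore cannot be told apart. In LC-DTR ears the croton oil samples carry 10851 to 10854 and the vehicle samples 10825, 10968 and 11098. A batch that follows these numbers could not be fully separated from the croton oil difference there. The direction of calls over all genes depended on the scaling. Of the genes called after croton oil between the genotypes, 65.6% were higher in LC-DTA as deposited. After scaling each sample by its median ratio this was 49.8%, and after quantile normalization 50.3%. Under these 2 scalings 21 and 16 members were higher and 1 was lower in each. Of all genes tested, 25.1% and 25.5% were then higher and 25.2% and 25.1% lower. Under vehicle these shares were 78.2%, 50.2% and 48.1%, with 6, 5 and 3 members higher, and median ratio scaling moved the median of all genes under vehicle to -0.01. For croton oil in LC-DTA ears they were 41.2%, 51.6% and 46.4%, with 9, 9 and 10 members higher and 3, 2 and 2 lower. For croton oil in LC-DTR ears they were 42.8%, 51.6% and 45.1%, with 3, 5 and 6 members higher and 6, 5 and 4 lower.

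**Figure D1:**
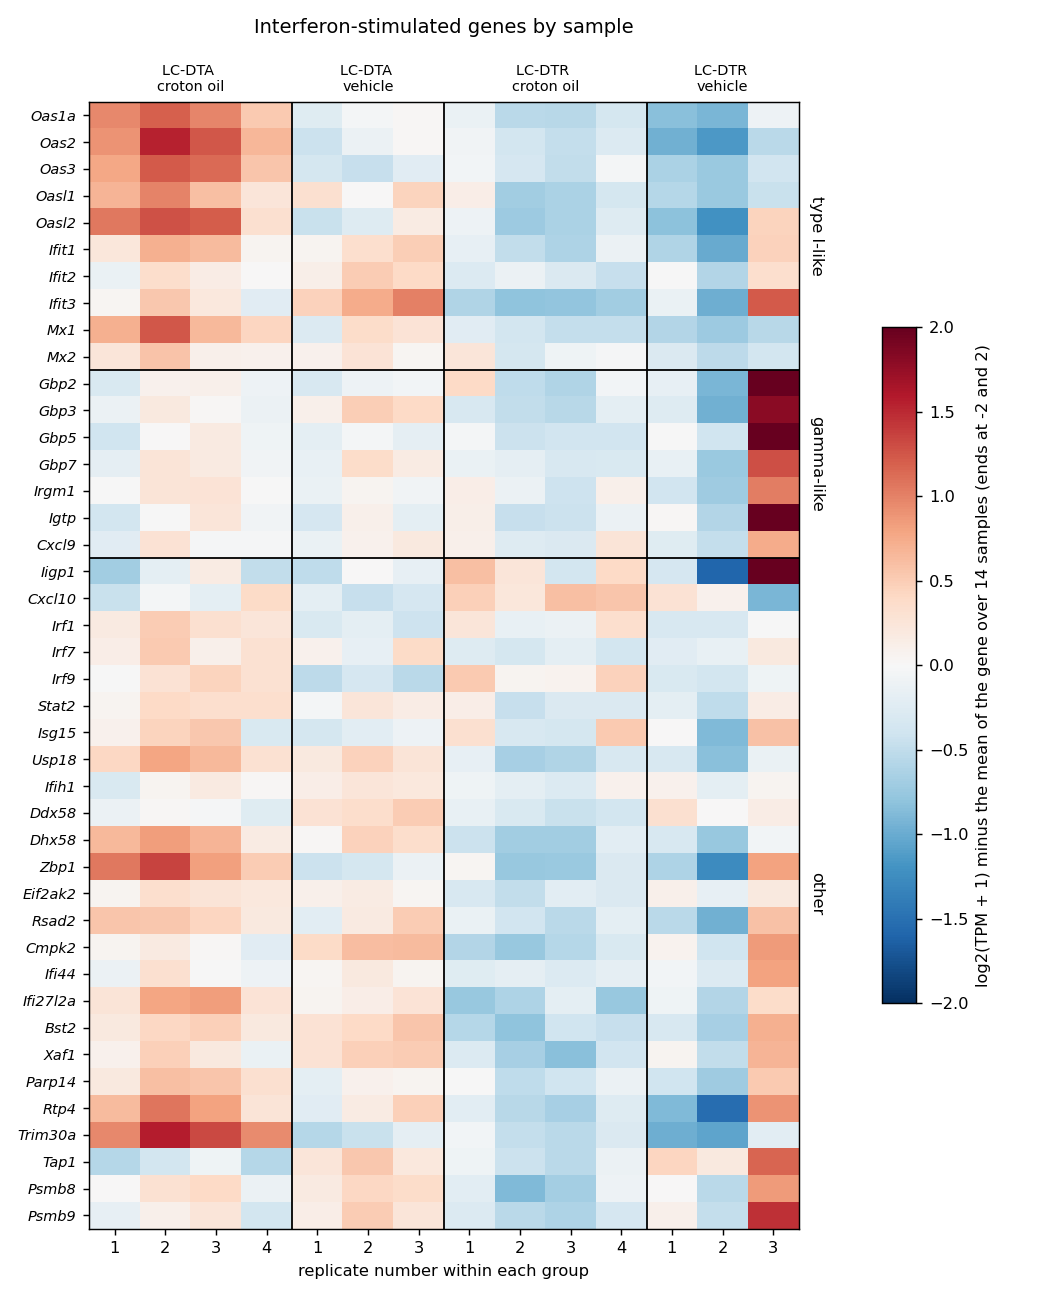
Level of each of the 42 members (down the page, by class) in each of the 14 samples (across), as log2(TPM + 1) minus the gene's mean over the 14 samples, with colours ending at -2 and 2. The Oas genes, Mx1, Zbp1 and Trim30a had their highest values in LC-DTA croton oil samples, and the 7 gamma-like genes were highest in LC-DTR vehicle replicate 3.

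The 2-5A synthetases make the short adenylate chains that activate RNase L, which then cuts viral and cellular RNA. Oas1a measured 3.53, 4.32, 3.55 and 2.34 TPM in LC-DTA croton oil ears, 0.965, 1.26 and 1.36 TPM in LC-DTA vehicle ears, 1.11, 0.590, 0.586 and 0.826 TPM in LC-DTR croton oil ears and 0.306, 0.234 and 1.17 TPM in LC-DTR vehicle ears. Oas2 stood at 3.85, 6.56, 5.15 and 3.15 TPM in LC-DTA croton oil ears, 0.943, 1.41 and 1.65 TPM in LC-DTA vehicle ears, 1.48, 1.01, 0.875 and 1.17 TPM in LC-DTR croton oil ears and 0.346, 0.182 and 0.794 TPM in LC-DTR vehicle ears. Oas3 had 2.13, 3.27, 3.01 and 1.69 TPM in LC-DTA croton oil ears, 0.423, 0.328 and 0.565 TPM in LC-DTA vehicle ears, 0.765, 0.452, 0.303 and 0.784 TPM in LC-DTR croton oil ears and 0.174, 0.0852 and 0.402 TPM in LC-DTR vehicle ears. For Oas1a, Oas2 and Oas3 every LC-DTA croton oil sample lay above every sample of the other 3 groups. By limma, croton oil raised Oas1a in LC-DTA ears by 1.00 ± 0.20 (log2 difference ± SE, adjusted p = 7.0e-04), Oas2 by 1.26 ± 0.20 (adjusted p = 1.3e-04) and Oas3 by 1.27 ± 0.17 (adjusted p = 3.0e-05). In LC-DTR ears limma gave 0.58 ± 0.20 for Oas2 (adjusted p = 0.025), and Oas1a (0.22 ± 0.20) and Oas3 (0.36 ± 0.17) did not pass. Oas3 reached 1 TPM only in the 4 LC-DTA croton oil samples and lay at 0.0852 to 0.784 TPM in the other 10, so it entered the test only through the group where it is high, and its calls support nothing further. Its difference between the responses was 0.91 ± 0.24 (limma adjusted p = 0.015), which did not pass with a pseudocount of 0.1 (limma adjusted p = 0.13). The difference missed the threshold for Oas1a at 0.78 ± 0.28 (limma adjusted p = 0.057) and for Oas2 at 0.68 ± 0.28 (limma adjusted p = 0.097).

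Oasl1 and Oasl2 encode synthetase-like relatives. Oasl1 was at 2.57, 3.47, 2.41 and 1.66 TPM in LC-DTA croton oil ears, 1.79, 1.25 and 2.06 TPM in LC-DTA vehicle ears, 1.45, 0.380, 0.453 and 0.748 TPM in LC-DTR croton oil ears and 0.515, 0.341 and 0.652 TPM in LC-DTR vehicle ears. Oasl2 measured 6.96, 8.33, 7.89 and 3.78 TPM in LC-DTA croton oil ears, 1.82, 2.23 and 3.29 TPM in LC-DTA vehicle ears, 2.57, 1.32, 1.47 and 2.22 TPM in LC-DTR croton oil ears and 1.17, 0.653 and 4.24 TPM in LC-DTR vehicle ears. The groups of Oasl2 overlapped through LC-DTR vehicle replicate 3, which lay above LC-DTA croton oil replicate 4. Oasl2 rose with croton oil in LC-DTA ears by 1.15 ± 0.34 (limma adjusted p = 0.0097), and Oasl1 did not pass there (0.38 ± 0.20). After croton oil all 5 synthetase genes were higher in LC-DTA than in LC-DTR ears, by 1.02 (Oasl1) to 1.40 (Oasl2). Oas1a has near-identical copies in the mouse genome, so its value is uncertain where reads are shared.

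The Ifit proteins bind viral RNA and block its translation. They did not pass the test for croton oil in either genotype, but 2 of 3 were higher in LC-DTA than in LC-DTR ears after croton oil. Ifit1 stood at 4.06, 6.01, 5.64 and 3.46 TPM in LC-DTA croton oil ears, 3.49, 4.45 and 5.07 TPM in LC-DTA vehicle ears, 2.83, 2.08, 1.81 and 2.99 TPM in LC-DTR croton oil ears and 1.84, 1.15 and 4.94 TPM in LC-DTR vehicle ears. Ifit3 had 5.22, 7.78, 6.02 and 4.17 TPM in LC-DTA croton oil ears, 7.36, 9.11 and 11.2 TPM in LC-DTA vehicle ears, 2.99, 2.48, 2.49 and 2.76 TPM in LC-DTR croton oil ears and 4.53, 2.08 and 13.2 TPM in LC-DTR vehicle ears. Ifit3 was at its lowest in the 4 LC-DTR croton oil samples and in LC-DTR vehicle replicate 2. The genotype difference after croton oil was 0.75 ± 0.26 for Ifit1 (limma adjusted p = 0.026) and 0.86 ± 0.33 for Ifit3 (limma adjusted p = 0.043), while Ifit2 missed the threshold at 0.38 ± 0.17 (limma adjusted p = 0.076). Ifit3 has a close copy in the mouse genome.

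Mx1 and Mx2 encode dynamin-like GTPases that trap viral components. Mx1 was at 3.87, 6.01, 3.67 and 2.99 TPM in LC-DTA croton oil ears, 1.46, 2.81 and 2.60 TPM in LC-DTA vehicle ears, 1.54, 1.31, 1.14 and 1.14 TPM in LC-DTR croton oil ears and 0.970, 0.797 and 1.03 TPM in LC-DTR vehicle ears. All 4 LC-DTA croton oil values of Mx1 were above every other sample. Croton oil raised Mx1 in LC-DTA ears by 0.64 ± 0.18 (limma adjusted p = 0.0076), and it was higher in LC-DTA than in LC-DTR ears both after croton oil (1.14 ± 0.17) and under vehicle (0.74 ± 0.19). Mx2, at 0.414 to 1.45 TPM in 13 samples and highest in LC-DTA croton oil replicate 2, passed only in the genotype comparison under vehicle, at 0.52 ± 0.16 (limma adjusted p = 0.026).

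Among the nucleic acid sensors the members moved in opposite directions. Zbp1 senses unusual left-handed nucleic acid and can start necroptosis. Zbp1 measured 5.81, 7.37, 4.81 and 3.69 TPM in LC-DTA croton oil ears, 1.44, 1.59 and 2.04 TPM in LC-DTA vehicle ears, 2.39, 0.954, 0.970 and 1.71 TPM in LC-DTR croton oil ears and 1.14, 0.381 and 4.73 TPM in LC-DTR vehicle ears. It rose with croton oil in LC-DTA ears by 1.23 ± 0.37 (limma adjusted p = 0.011), and LC-DTR vehicle replicate 3 reached the range of the LC-DTA croton oil samples. Ddx58 encodes RIG-I, a cytoplasmic sensor of viral RNA. Ddx58 stood at 6.29, 7.05, 6.73 and 5.64 TPM in LC-DTA croton oil ears, 8.68, 9.06 and 10.2 TPM in LC-DTA vehicle ears, 6.11, 5.41, 4.82 and 5.15 TPM in LC-DTR croton oil ears and 8.81, 6.92 and 7.75 TPM in LC-DTR vehicle ears. Ddx58 fell by 0.48 ± 0.10 in LC-DTA ears and by 0.47 ± 0.10 in LC-DTR ears (limma adjusted p = 0.0013 and 0.0018), with no overlap between croton oil and vehicle samples in either.

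Dhx58 encodes LGP2, a regulator of RIG-I-like sensing. Dhx58 had 5.34, 6.15, 5.46 and 3.495 TPM in LC-DTA croton oil ears, 3.09, 4.56 and 4.13 TPM in LC-DTA vehicle ears, 2.002, 1.48, 1.47 and 2.48 TPM in LC-DTR croton oil ears and 2.23, 1.37 and 2.89 TPM in LC-DTR vehicle ears. It was higher in LC-DTA than in LC-DTR ears after croton oil (1.09 ± 0.18) and under vehicle (0.66 ± 0.21), and did not pass for croton oil in either genotype. Eif2ak2 encodes PKR, a kinase that stops translation when it binds double-stranded RNA. Eif2ak2 was at 14.2, 17.6, 16.51 and 16.1 TPM in LC-DTA croton oil ears, 14.8, 15.45 and 14.04 TPM in LC-DTA vehicle ears, 10.8, 9.45, 11.7 and 11.05 TPM in LC-DTR croton oil ears and 14.8, 12.1 and 15.8 TPM in LC-DTR vehicle ears. The LC-DTR croton oil samples were the 4 lowest of the 14. PKR mRNA fell with croton oil in LC-DTR ears by 0.37 ± 0.10 (limma adjusted p = 0.0067) and did not pass in LC-DTA ears at 0.12 ± 0.10. The difference between these responses was 0.49 ± 0.14 (limma adjusted p = 0.024). Ifih1, which encodes the RNA sensor MDA5, lay between 5.39 and 8.28 TPM in all samples and was called in none of the 5 comparisons.

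**Figure D2:**
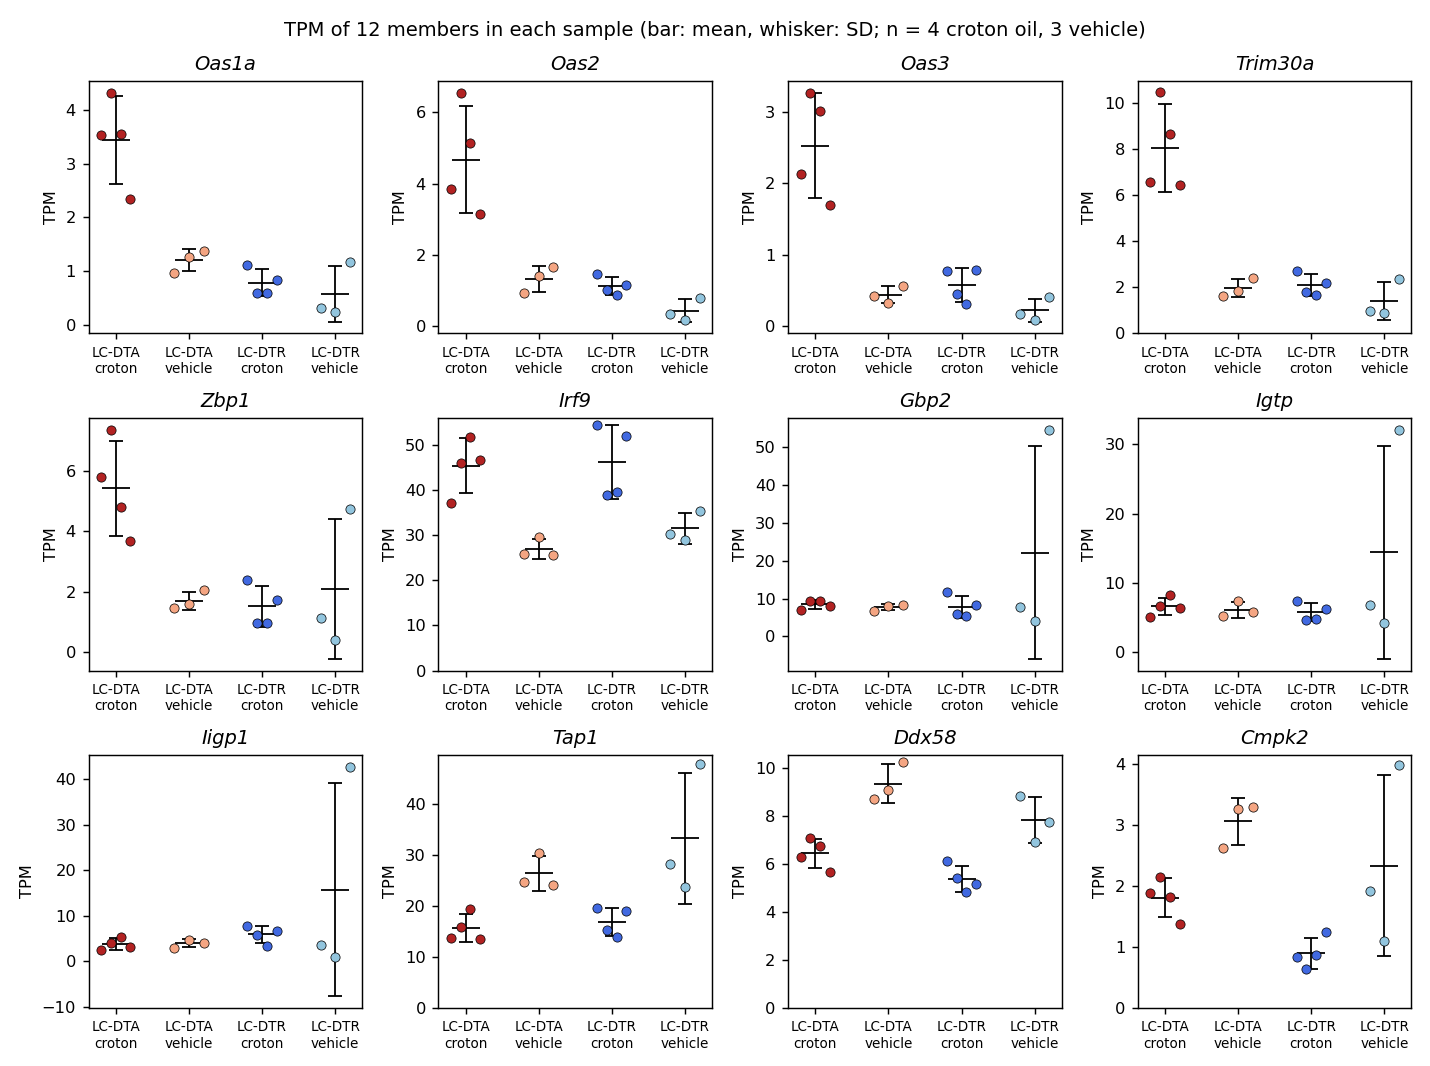
TPM of 12 members in each sample, with the group mean (bar) and SD (whisker), for 4 croton oil and 3 vehicle samples per genotype. Oas1a, Oas2, Oas3 and Trim30a were highest in all 4 LC-DTA croton oil samples, Gbp2, Igtp and Iigp1 stood apart only in 1 LC-DTR vehicle sample, and Ddx58 was lower in every croton oil sample than in the vehicle samples of its genotype.

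Of the other antiviral effectors, Trim30a had a croton oil response in LC-DTA ears that held in all 25 alternatives. It encodes a tripartite-motif protein known in mice to restrain inflammatory signalling. Trim30a measured 6.57, 10.48, 8.66 and 6.46 TPM in LC-DTA croton oil ears, 1.63, 1.86 and 2.42 TPM in LC-DTA vehicle ears, 2.72, 1.80, 1.68 and 2.19 TPM in LC-DTR croton oil ears and 0.975, 0.869 and 2.36 TPM in LC-DTR vehicle ears. All 4 LC-DTA croton oil samples were above every other sample. The rise was 1.59 ± 0.21 in LC-DTA ears (limma adjusted p = 2.9e-05), against 0.41 ± 0.21 in LC-DTR ears (limma adjusted p = 0.11), and the difference of 1.18 ± 0.29 passed (limma adjusted p = 0.012). Near-identical Trim30 copies make its level uncertain.

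Ifi27l2a encodes a small interferon-induced membrane protein and had the highest value of any member in a single sample. Ifi27l2a stood at 62.2, 90.4, 93.2 and 62.55 TPM in LC-DTA croton oil ears, 53.6, 56.8 and 62.51 TPM in LC-DTA vehicle ears, 29.96, 33.3, 45.1 and 30.2 TPM in LC-DTR croton oil ears and 48.8, 33.9 and 66.7 TPM in LC-DTR vehicle ears. The lowest LC-DTA croton oil value lay above every LC-DTR croton oil value. Its genotype difference after croton oil was 1.12 ± 0.19 (limma adjusted p = 3.4e-04), and its responses differed by 0.87 ± 0.30 (limma adjusted p = 0.049), although neither response passed alone, at 0.39 ± 0.21 in LC-DTA and -0.48 ± 0.21 in LC-DTR ears.

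Rsad2 encodes viperin, which makes a chain-terminating nucleotide, and Cmpk2, its neighbour in the genome, supplies nucleotides. Rsad2 had 2.94, 2.92, 2.64 and 2.08 TPM in LC-DTA croton oil ears, 1.32, 2.07 and 2.83 TPM in LC-DTA vehicle ears, 1.45, 1.06, 0.847 and 1.35 TPM in LC-DTR croton oil ears and 0.850, 0.382 and 3.06 TPM in LC-DTR vehicle ears. Cmpk2 was at 1.88, 2.15, 1.82 and 1.38 TPM in LC-DTA croton oil ears, 2.62, 3.27 and 3.31 TPM in LC-DTA vehicle ears, 0.839, 0.632, 0.868 and 1.24 TPM in LC-DTR croton oil ears and 1.91, 1.10 and 3.98 TPM in LC-DTR vehicle ears. Cmpk2 was lower in the croton oil samples of both genotypes, and LC-DTR vehicle replicate 2 overlapped with its croton oil group. It fell by 0.54 ± 0.22 in LC-DTA ears (limma adjusted p = 0.049) and by 0.73 ± 0.22 in LC-DTR ears (limma adjusted p = 0.013). The LC-DTA call held in 6 of 24 alternatives, and without LC-DTR vehicle replicate 3 the LC-DTR value was -0.39 and did not pass (limma adjusted p = 0.065). Rsad2 did not pass for croton oil in either genotype, and after croton oil was higher in LC-DTA than in LC-DTR ears by 0.75 ± 0.26.

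Bst2 encodes tetherin, which holds budding viruses on the cell, and Xaf1 promotes cell death. Bst2 measured 26.9, 31.3, 32.9 and 26.9 TPM in LC-DTA croton oil ears, 28.7, 31.1 and 34.8 TPM in LC-DTA vehicle ears, 15.3, 12.9, 17.4 and 16.6 TPM in LC-DTR croton oil ears and 18.51, 14.3 and 38.7 TPM in LC-DTR vehicle ears. Xaf1 stood at 3.58, 4.97, 3.91 and 2.90 TPM in LC-DTA croton oil ears, 4.22, 4.99 and 5.14 TPM in LC-DTA vehicle ears, 2.57, 1.70, 1.40 and 2.29 TPM in LC-DTR croton oil ears and 3.47, 2.06 and 5.91 TPM in LC-DTR vehicle ears. For both, all 4 LC-DTA croton oil values were above all 4 LC-DTR croton oil values. The differences after croton oil were 0.89 ± 0.21 for Bst2 and 0.70 ± 0.21 for Xaf1, and Xaf1 fell with croton oil in LC-DTR ears by 0.62 ± 0.23 (limma adjusted p = 0.034). Without LC-DTR vehicle replicate 3 that value was -0.32 and did not pass (limma adjusted p = 0.20), and the call was lost in 8 alternatives in all. Parp14, an ADP-ribosyltransferase, and Rtp4, a chaperone of membrane receptors, were measured as follows. Parp14 had 5.61, 7.76, 7.42 and 6.22 TPM in LC-DTA croton oil ears, 4.01, 5.13 and 4.97 TPM in LC-DTA vehicle ears, 4.72, 3.05, 3.36 and 4.32 TPM in LC-DTR croton oil ears and 3.37, 2.52 and 7.30 TPM in LC-DTR vehicle ears. Rtp4 was at 9.02, 12.7, 10.3 and 6.76 TPM in LC-DTA croton oil ears, 4.55, 6.29 and 8.02 TPM in LC-DTA vehicle ears, 4.62, 3.39, 3.11 and 4.42 TPM in LC-DTR croton oil ears and 2.53, 1.25 and 11.1 TPM in LC-DTR vehicle ears. Both were higher in LC-DTA than in LC-DTR ears after croton oil, by 0.68 ± 0.21 and 1.11 ± 0.38.

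Isg15 is a ubiquitin-like protein and Usp18 is the protease that removes it and damps type I receptor signalling. Isg15 lay between 4.62 and 14.4 TPM and was called in none of the comparisons. Usp18 measured 3.90, 5.39, 4.75 and 3.54 TPM in LC-DTA croton oil ears, 3.21, 4.06 and 3.39 TPM in LC-DTA vehicle ears, 2.27, 1.33, 1.43 and 1.96 TPM in LC-DTR croton oil ears and 1.94, 1.06 and 2.35 TPM in LC-DTR vehicle ears. LC-DTA and LC-DTR values of Usp18 did not overlap in either treatment, and it was higher in LC-DTA ears by 0.98 ± 0.16 after croton oil (limma adjusted p = 2.5e-04) and by 0.74 ± 0.19 under vehicle (limma adjusted p = 0.012).

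Of the 4 transcription factors, 2 rose with croton oil in LC-DTA ears and 1 in LC-DTR ears. Irf9 is the DNA-binding part of the type I complex. Irf9 stood at 37.1, 45.9, 51.6 and 46.54 TPM in LC-DTA croton oil ears, 25.9, 29.49 and 25.50 TPM in LC-DTA vehicle ears, 54.4, 38.9, 39.4 and 51.9 TPM in LC-DTR croton oil ears and 30.3, 28.8 and 35.3 TPM in LC-DTR vehicle ears. In each genotype every croton oil value was above every vehicle value, and Irf9 rose by 0.72 ± 0.13 in LC-DTA ears (limma adjusted p = 4.2e-04) and by 0.53 ± 0.13 in LC-DTR ears (limma adjusted p = 0.0047). Irf1 had 15.9, 20.1, 17.6 and 16.54 TPM in LC-DTA croton oil ears, 11.01, 12.1 and 10.2 TPM in LC-DTA vehicle ears, 16.6, 12.4, 12.7 and 17.7 TPM in LC-DTR croton oil ears and 10.9, 10.9 and 13.8 TPM in LC-DTR vehicle ears. Irf1, the factor whose promoter above holds a GAS match, rose in LC-DTA ears by 0.62 ± 0.13 (limma adjusted p = 0.0011) and missed the threshold in LC-DTR ears at 0.29 ± 0.13 (limma adjusted p = 0.073), and the difference between the responses did not pass (0.32 ± 0.18). Irf7, which amplifies type I interferon production, and Stat2 passed only between the genotypes after croton oil, at 0.56 ± 0.12 and 0.51 ± 0.14. Irf9 overlaps Rnf31 in the annotation.

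Of the antigen-processing members only Tap1 fell with croton oil in both genotypes. Tap1 transports peptides for class I presentation, and Psmb8 and Psmb9 are immunoproteasome subunits. Tap1 was at 13.6, 15.8, 19.4 and 13.54 TPM in LC-DTA croton oil ears, 24.6, 30.3 and 24.1 TPM in LC-DTA vehicle ears, 19.47, 15.1, 13.9 and 18.96 TPM in LC-DTR croton oil ears and 28.1, 23.8 and 47.7 TPM in LC-DTR vehicle ears. Psmb8 measured 19.7, 24.4, 26.3 and 18.1 TPM in LC-DTA croton oil ears, 22.2, 26.46 and 25.46 TPM in LC-DTA vehicle ears, 16.9, 10.2, 11.8 and 18.3 TPM in LC-DTR croton oil ears and 19.6, 13.1 and 36.3 TPM in LC-DTR vehicle ears. Psmb9 stood at 7.15, 8.82, 9.81 and 6.08 TPM in LC-DTA croton oil ears, 9.02, 11.9 and 9.81 TPM in LC-DTA vehicle ears, 6.54, 5.29, 4.99 and 6.23 TPM in LC-DTR croton oil ears and 8.85, 5.61 and 24.1 TPM in LC-DTR vehicle ears. Every croton oil value of Tap1 lay below every vehicle value of the same genotype. Tap1 fell by 0.73 ± 0.20 in LC-DTA ears (limma adjusted p = 0.0068) and by 0.89 ± 0.20 in LC-DTR ears (limma adjusted p = 0.0024), and Psmb9 fell by 0.81 ± 0.32 in LC-DTR ears (limma adjusted p = 0.047). The Psmb9 call was lost in 22 alternatives, and without LC-DTR vehicle replicate 3 the value was -0.26 (limma adjusted p = 0.28). Psmb8 was higher in LC-DTA than in LC-DTR ears after croton oil by 0.62 ± 0.25 (limma adjusted p = 0.049). Tap1 and Psmb9 lie on opposite strands and overlap, and the strand setting of the counting is not given in the sources used here, so their reads cannot be told apart with certainty.

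Cxcl10 encodes a chemokine that draws T cells and responds to both kinds of interferon. Cxcl10 had 5.64, 7.81, 6.93 and 10.8 TPM in LC-DTA croton oil ears, 6.90, 5.59 and 6.15 TPM in LC-DTA vehicle ears, 11.6, 9.55, 12.8 and 12.2 TPM in LC-DTR croton oil ears and 10.1, 8.57 and 3.80 TPM in LC-DTR vehicle ears. It rose with croton oil in LC-DTR ears by 0.64 ± 0.24 (limma adjusted p = 0.039), where LC-DTR vehicle replicate 3 was the lowest of the 14 samples. Without that sample the value was 0.28 and did not pass (limma adjusted p = 0.24).

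The gamma-like genes, whose products include the guanylate-binding proteins and immunity-related GTPases that attack the vacuoles of intracellular pathogens, were called in none of the 5 comparisons. At an unadjusted p under 0.05, limma gave 0 of their 35 values. The fit estimates each gene's spread over all 4 groups, including LC-DTR vehicle replicate 3, so a missing call does not show absence of change. Fits of only the compared groups called 1 gamma-like member lower with croton oil in LC-DTA ears (9083 of 14693 genes called). They called 1 higher in LC-DTA than in LC-DTR ears after croton oil (7243 of 14693). With croton oil in LC-DTR ears, 5 were called lower without LC-DTR vehicle replicate 2 (7170 of 14680 genes called). Without replicate 3, 1 was called higher there (6500 of 14665). Gbp2 was at 6.89, 9.34, 9.47 and 8.11 TPM in LC-DTA croton oil ears, 6.84, 8.10 and 8.40 TPM in LC-DTA vehicle ears, 11.9, 5.86, 5.46 and 8.35 TPM in LC-DTR croton oil ears and 7.73, 4.18 and 54.7 TPM in LC-DTR vehicle ears. Igtp measured 5.02, 6.69, 8.15 and 6.38 TPM in LC-DTA croton oil ears, 5.14, 7.30 and 5.79 TPM in LC-DTA vehicle ears, 7.41, 4.63, 4.75 and 6.14 TPM in LC-DTR croton oil ears and 6.84, 4.16 and 32.1 TPM in LC-DTR vehicle ears. Irgm1 stood at 14.9, 18.05, 18.4 and 14.97 TPM in LC-DTA croton oil ears, 13.54, 15.6 and 14.2 TPM in LC-DTA vehicle ears, 16.50, 13.7, 11.003 and 16.1 TPM in LC-DTR croton oil ears and 11.2, 8.79 and 31.3 TPM in LC-DTR vehicle ears. In each, LC-DTR vehicle replicate 3 was the highest of the 14 samples. The other 13 lay between 4.18 and 11.9 TPM for Gbp2, 4.16 and 8.15 TPM for Igtp and 8.79 and 18.4 TPM for Irgm1. That replicate was also the highest for Gbp3, Gbp5, Gbp7 and Cxcl9, a T cell chemokine, and for the other immunity-related GTPase, Iigp1, which had 42.8 TPM in that sample and 0.914 to 7.74 TPM in the other 13. Over the 7 gamma-like members the ratio of that sample to the mean of LC-DTR vehicle replicates 1 and 2 was 3.13 to 10.2, with a median of 5.84, against a median of 3.06 over the 10 type I-like members. It was the highest of the 14 samples for 18 of 42 members (42.9%), against 7.70% of all genes tested, and above both other LC-DTR vehicle samples for 38 of 42 (90.5%), against 32.4% of all genes. At the other end, LC-DTR vehicle replicate 2 was the lowest of the 14 for 27 of 42 members (64.3%), against 12.3% of all genes tested. The collagen gene Col1a1 stood at 279, 241 and 693 TPM in LC-DTR vehicle replicates 1, 2 and 3, and its part in the result was not tested.

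**Figure D3:**
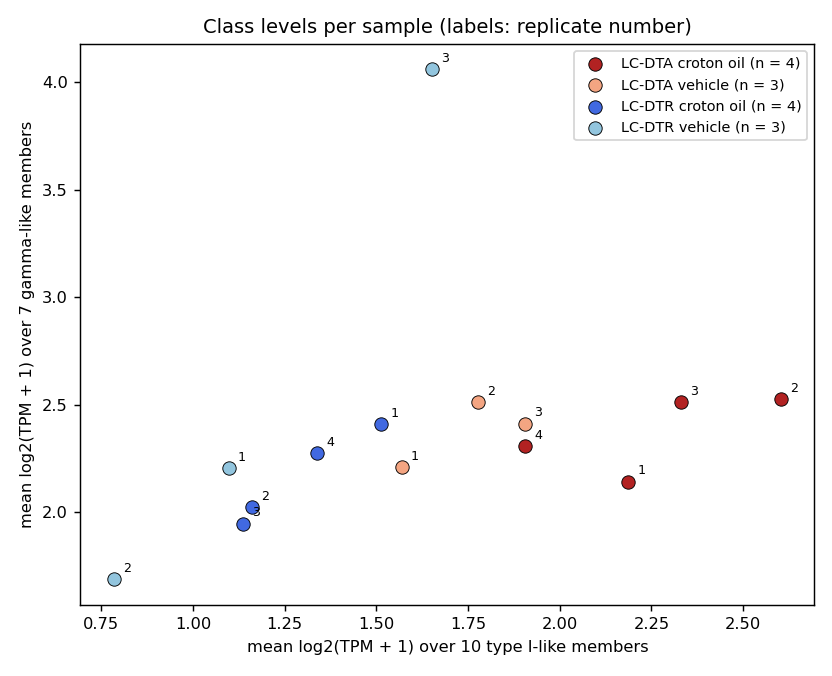
Mean log2(TPM + 1) over the 10 type I-like members (x axis) and over the 7 gamma-like members (y axis) in each sample, coloured by group and numbered by replicate. The LC-DTA croton oil samples lie furthest right, at 1.91 to 2.60 on the x axis, and LC-DTR vehicle replicate 3 lies alone at 4.06 on the y axis while the other 13 samples lie between 1.69 and 2.53.

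Set side by side, the classes differed in their median differences. For croton oil in LC-DTA ears the median was 0.51 over the type I-like members and 0.06 over the gamma-like ones, and in LC-DTR ears it was 0.21 and -0.58. Between the genotypes it was 1.08 and 0.21 after croton oil and 0.60 and -0.02 under vehicle. For the difference of the responses both medians were 0.29, but without LC-DTR vehicle replicate 3 they were 0.24 over the type I-like and -0.27 over the gamma-like members, and without LC-DTR vehicle replicate 2 they were 0.56 and 0.82. By count, 5 of 10 type I-like members were higher with croton oil in LC-DTA ears (24.2% of all genes) and 1 of 10 in LC-DTR ears (22.1% of all genes), while 8 of 10 were higher in LC-DTA than in LC-DTR ears after croton oil (34.3% of all genes) and 4 of 10 under vehicle (19.1% of all genes). Oas3, tested only through its high group, is among the 5 and the 8. Members are not replicates, so no test was made between the classes.

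**Figure D4:**
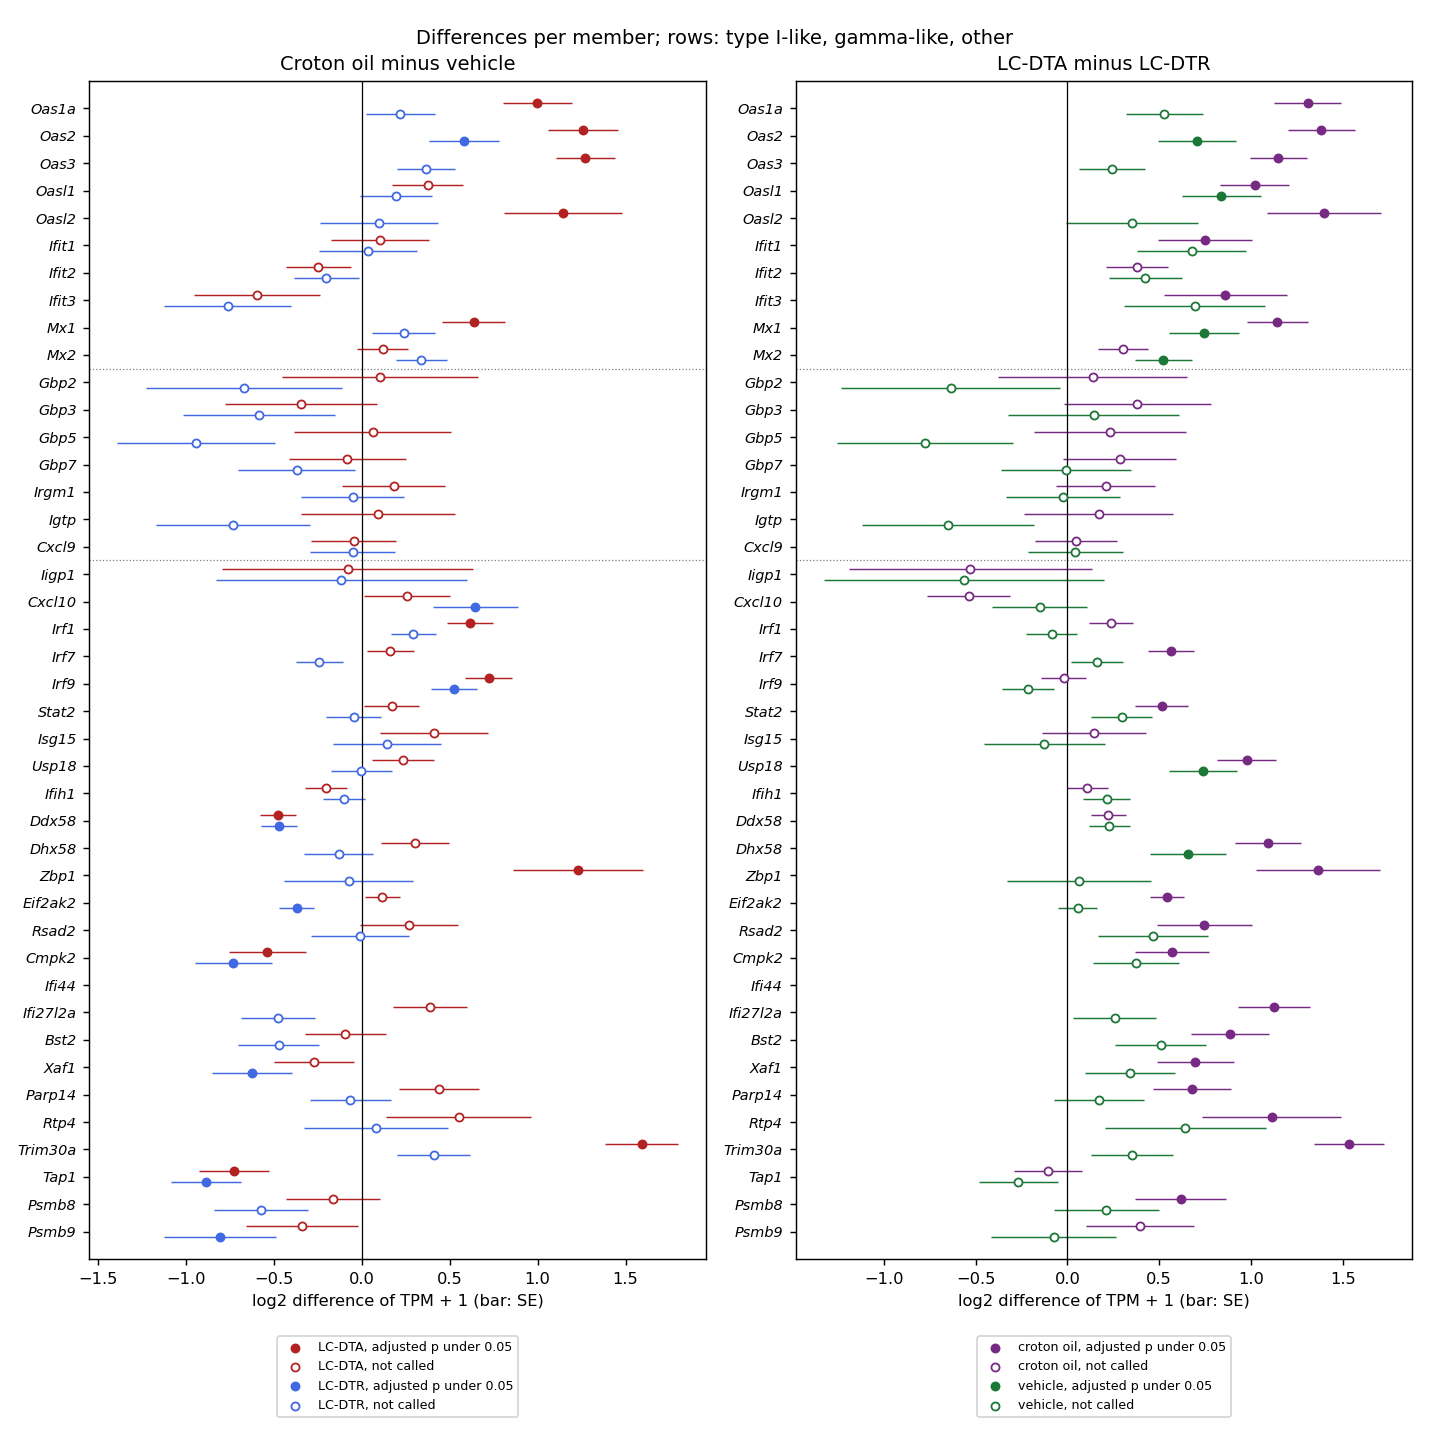
Log2 difference of TPM + 1 with its SE for each tested member, for croton oil minus vehicle (left panel) and LC-DTA minus LC-DTR (right panel), with filled points at a limma adjusted p under 0.05. Filled points of the type I-like rows lie right of 0, up to 1.40 for Oasl2 after croton oil, and no gamma-like row has a filled point.

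Leaving out LC-DTR vehicle replicate 3 moved the count of calls under vehicle. Without it 21 of 40 members were higher in LC-DTA than in LC-DTR vehicle ears and 0 lower, or 52.5%, beside 25.3% of all genes called (18.6% higher and 6.70% lower). Of the 15 gains, 3 were gamma-like, with Gbp3 at 0.95, Gbp7 at 0.58 and Irgm1 at 0.50, and Cxcl9 was no longer tested. The median was then 0.81 over the type I-like and 0.44 over the gamma-like members. For croton oil in LC-DTR ears the gamma-like median was 0.22 without that sample and -0.58 with it, and members called were 8 higher and 3 lower, beside 44.3% of all genes (18.6% higher and 25.8% lower). For croton oil in LC-DTA ears there were 11 higher and 4 lower members, beside 60.8% of all genes (25.1% higher and 35.7% lower). After croton oil 26 members were then higher in LC-DTA than in LC-DTR ears and 1, Cxcl10, was lower at -0.54, beside 54.0% of all genes (35.3% higher and 18.7% lower). Of the 4 differences between responses, those of Trim30a at 0.91 and of Oas3 at 0.80, tested only through its high group, still passed, beside 19.4% of all genes (9.22% higher and 10.2% lower), and those of Eif2ak2 and Ifi27l2a did not.

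**Figure D5:**
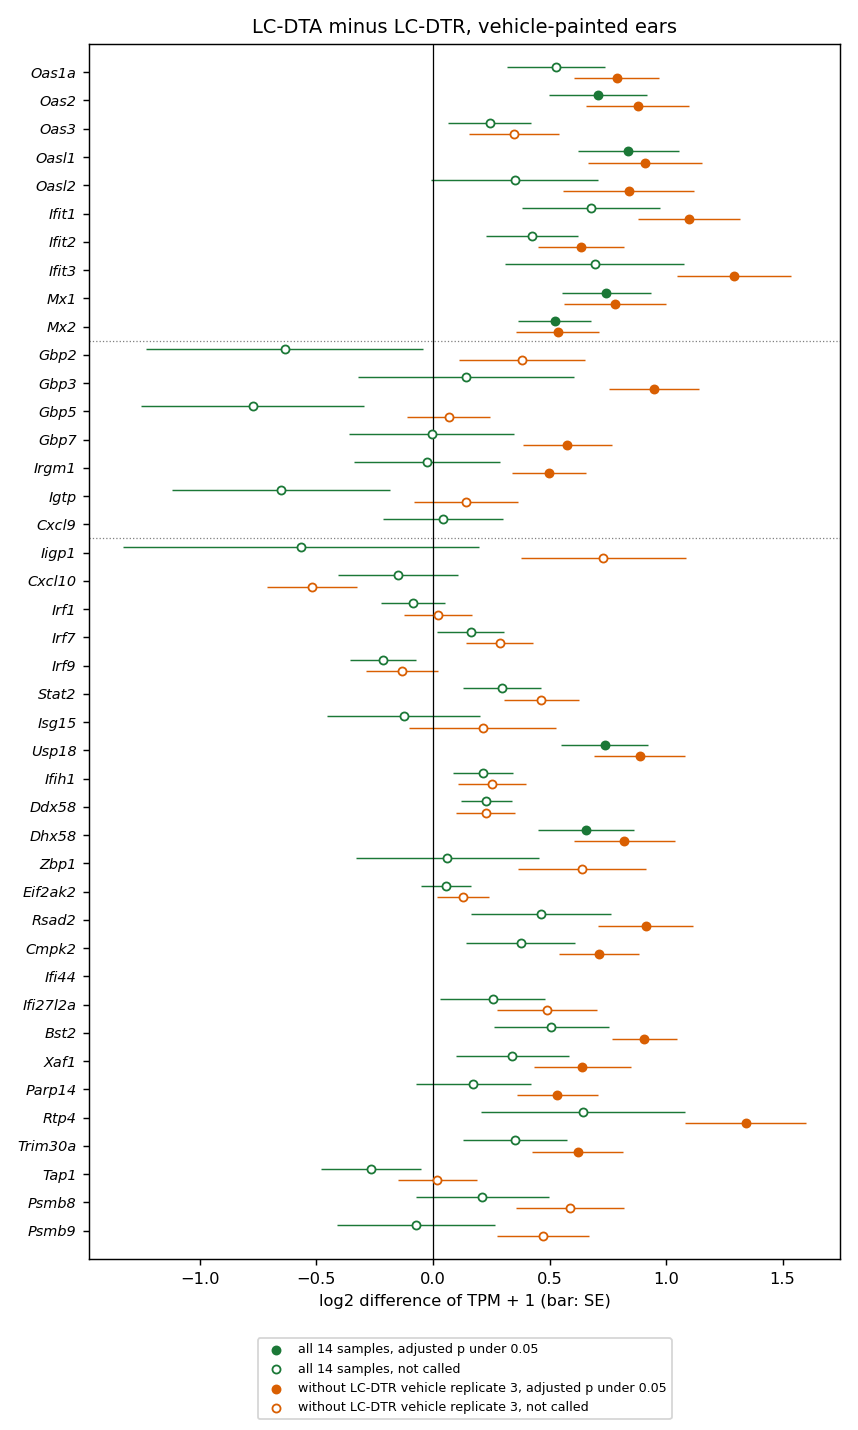
Log2 difference of TPM + 1 with its SE between LC-DTA and LC-DTR vehicle ears for each member, with all 14 samples (green) and without LC-DTR vehicle replicate 3 (orange), with filled points at a limma adjusted p under 0.05. Filled points number 6 with all samples and 21 without that replicate.

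Upstream of these genes, transcripts of the interferons themselves were at or near the bottom of the scale. Of 21 interferon genes, 13 were listed at 0 in all 14 samples, none passed the filter on low values, and the highest value was 0.521 TPM, for Ifnk, a keratinocyte interferon, in 1 LC-DTA croton oil sample. Ifng was at 0 to 0.158 TPM in LC-DTA croton oil ears, 0 in all LC-DTA vehicle ears, 0 to 0.0589 TPM in LC-DTR croton oil ears and 0 to 0.0503 TPM in LC-DTR vehicle ears. All 6 receptor genes were tested. With croton oil none passed in LC-DTA ears, and in LC-DTR ears Ifnar2 (0.29 ± 0.07) and Ifngr1 (0.53 ± 0.17) rose. Of all genes, 24.2% rose and 34.5% fell in LC-DTA ears and 22.1% rose in LC-DTR ears. Ifngr1 stood at 191, 205 and 131 TPM in LC-DTR vehicle replicates 1, 2 and 3. In LC-DTR croton oil ears it was at 224 to 278 TPM. After croton oil, LC-DTA ears had more Ifnar1 (0.24 ± 0.06) and Ifnar2 (0.39 ± 0.06) and less Ifngr1 (-0.61 ± 0.15) and Ifnlr1 (-0.52 ± 0.09) than LC-DTR ears. Under vehicle Ifnar1 (0.32 ± 0.07) and Ifnar2 (0.57 ± 0.07) were higher and Ifnlr1 (-0.38 ± 0.10) lower in LC-DTA than in LC-DTR ears. Of all genes, 34.3% were higher and 18.0% lower in LC-DTA than in LC-DTR ears after croton oil, and 19.1% and 5.34% under vehicle.

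The counts of pathway genes that follow stand beside 58.7% of all genes called with croton oil in LC-DTA ears and 51.6% in LC-DTR ears. Of 7 negative regulators, 4 rose with croton oil in LC-DTA ears and 5 rose and 1 fell in LC-DTR ears. Socs1, which blocks the receptor kinases, rose by 1.35 ± 0.16 in LC-DTA and 1.33 ± 0.16 in LC-DTR ears, and Socs3 rose by 2.30 ± 0.25 in LC-DTA and 2.15 ± 0.25 in LC-DTR ears. Of 6 further interferon regulatory factors 3 rose in each genotype, namely Irf2, Irf4 and Irf8, at 0.49 to 0.69 in log2 difference. Of 11 sensing adaptors and kinases, 6 rose and 3 fell in LC-DTA ears and 4 rose and 4 fell in LC-DTR ears. Mb21d1, the DNA sensor cGAS, rose in LC-DTA ears by 1.30 ± 0.19, did not pass in LC-DTR ears (0.22 ± 0.19), and its responses differed (limma adjusted p = 0.011). Its partner STING, listed as Tmem173, rose by 1.499 ± 0.19 in LC-DTA and by 0.85 ± 0.19 in LC-DTR ears.

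Markers of other cells moved with these comparisons. In whole tissue, fewer cells of a type and less RNA per cell cannot be told apart. Ly6c2 had 37.7, 63.9, 51.2 and 42.1 TPM in LC-DTA croton oil ears, 4.17, 2.44 and 4.81 TPM in LC-DTA vehicle ears, 5.997, 4.08, 2.51 and 6.45 TPM in LC-DTR croton oil ears and 1.48, 1.10 and 5.16 TPM in LC-DTR vehicle ears. Ly6c2, a marker of inflammatory monocytes, and Ccr2, their chemokine receptor, rose with croton oil in LC-DTA ears by 3.38 ± 0.35 and 2.52 ± 0.18, did not pass in LC-DTR ears at 0.80 ± 0.35 and -0.16 ± 0.18, and their responses differed by 2.58 ± 0.49 and 2.68 ± 0.25. Two-way movement was seen among macrophage markers in LC-DTA ears. Csf1r stood at 47.5 to 60.9 TPM with croton oil against 65.5 to 87.2 TPM with vehicle, and C1qa at 54.5 to 76.3 TPM against 108 to 134 TPM. Of the 9 monocyte and macrophage markers, 4 rose and 2 fell with croton oil in LC-DTA ears (24.2% and 34.5% of all genes). In LC-DTR ears 2 rose (22.1% of all genes). Of the 9 markers, 8 were higher in LC-DTA than in LC-DTR ears after croton oil (34.3% of all genes) and 7 under vehicle (19.1% of all genes). Their summed level was 1422 to 1773 TPM in LC-DTA croton oil ears and 823 to 1058 TPM in LC-DTA vehicle ears. It was 456 to 588 TPM in LC-DTR croton oil ears and 400.2 to 630.3 TPM in LC-DTR vehicle ears. Lyz2 alone held 989 to 1288 TPM, 495 to 642 TPM, 265 to 326 TPM and 240 to 393 TPM in these groups, so the sum mostly follows Lyz2. None of the 9 was at 0 in every sample of a group. The 7 neutrophil markers in the table summed to 560 to 768 TPM and 223 to 259 TPM in LC-DTA croton oil and vehicle ears. In LC-DTR croton oil and vehicle ears they summed to 461 to 982 TPM and 215 to 296 TPM. Of these 7, 6 rose and Il1r2 fell with croton oil in LC-DTA ears (24.2% and 34.5% of all genes). In LC-DTR ears 6 rose (22.1% of all genes). Il1r2 held most of the vehicle sums, at 184 to 192 TPM in LC-DTA and 189 to 227 TPM in LC-DTR vehicle ears. With croton oil it stood at 89.3 to 128 TPM and 195 to 240 TPM, so the sums understate the rise of the other 6. The 6 fibroblast markers summed to 4451 to 6067 TPM and 7003 to 8813 TPM in LC-DTA croton oil and vehicle ears, and to 2182 to 3225 TPM and 2130 to 4872 TPM in LC-DTR croton oil and vehicle ears. The part of these markers in the differences of the interferon-stimulated genes was not tested.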

How the data were processed

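Whole mouse ears were profiled by mRNA-seq in 14 samples, from RNA isolated with a Qiagen RNeasy kit and TruSeq Stranded mRNA libraries per the labels' protocols. Tools named in the submitters' processing notes are cutadapt, HISAT2, Subread and featureCounts, with build mm10 and no versions. The values are TPM as deposited by the authors. Neither annotation, strand setting nor calculation is given in the sources used here. Depth cannot be read from TPM, and a gene that takes a larger share lowers all others.

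Of 24062 rows, 27 named as dates were left out. Groups came from the labels, and 0 sample columns had no sample. Differences were tested with limma 3.58.1 (R 4.3.3, trend) on log2(TPM + 1), which understates changes of low genes, over 14693 genes with at least 1 TPM in at least 3 samples. All 14 samples and 4 group means were fitted, with Benjamini-Hochberg adjustment over all genes and calls at an adjusted p under 0.05. The procedure was tested on simulated data. Alternatives were 11 settings and 14 fits leaving out 1 sample each. They are reported for single members and for all genes together, and not for single receptor, pathway or marker genes.

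All 42 members could be named, with every sample's value for those called with a log2 difference of at least 0.58 in size or called in the difference of responses, and Gbp2, Igtp, Irgm1, Ddx58 and Ly6c2 were shown in full after their values were seen. Members, lists and tests were chosen with earlier results of these data known. Promoters came from RefSeq (GRCm38.p6) and gene positions from GENCODE M21, and 18 of 42 members overlap another annotated gene. A gene of the pathway is not reported here.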

Additional observations from a re-analysis of the deposited data

Results flagged for a closer look

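In the LC-DTR croton oil group, replicate 1 had 1.26 TPM of Gbp5, apart from the other 3 samples at 0.730 to 0.784 TPM. Its gap to the nearest sample was 0.899 of the group's range. Chance sets a sample apart in this way in about 1 in 20 groups of 4. Among 42 members, gaps of this size would therefore arise by chance alone. Gbp5 was the only member flagged for such a gap in the croton oil groups, so the gap is no evidence of a real difference in that sample. The vehicle groups were not screened for gaps, and LC-DTR vehicle replicate 3, described above, was therefore outside this screen.

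The croton oil response differed between the genotypes for 4 members, by limma's test of the difference itself. It was larger in LC-DTA than in LC-DTR ears by 1.18 for Trim30a, 0.91 for Oas3 and 0.87 for Ifi27l2a on the log2 scale. Oas3 reached 1 TPM only in the LC-DTA croton oil samples and so was tested only through the group where it is high. For Eif2ak2, which fell in LC-DTR ears and did not pass in LC-DTA ears, the difference was 0.49. Without LC-DTR vehicle replicate 3 the values were 0.91 for Trim30a, 0.80 for Oas3, 0.63 for Ifi27l2a and 0.41 for Eif2ak2, and those of Ifi27l2a and Eif2ak2 did not pass.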

How the results depend on the processing

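Of the calls reported, 10 of 12 for croton oil in LC-DTA ears, 4 of 9 for croton oil in LC-DTR ears, 15 of 23 between the genotypes after croton oil, 0 of 6 under vehicle and 1 of 4 for the difference of responses (Trim30a) held under every alternative in which the member was tested. Members that were also tested in all of them numbered 6, 4, 7, 0 and 1 of these calls. Oas3, tested only through its high group, is among the 10 and the 15. A filter of 5 TPM, which tests fewer members, left 6 calls for croton oil in LC-DTA ears. It left 13 between the genotypes after croton oil and 1 under vehicle. Beside these, 7343, 6499 and 2995 of all 11906 genes tested were called. The filter also made the type I-like minus gamma-like median difference for croton oil in LC-DTA ears -0.17 instead of 0.44. Quantile normalization left 3 calls under vehicle, beside 3409 of 14693 genes. With LC-DTA croton oil replicates 3 and 4 both left out (their sample numbers in the labels lie apart from those of 1 and 2), 15 members were called between the genotypes after croton oil and 2 for the difference of responses. A pseudocount of 0.1 gave 2 and a pseudocount of 5 gave 7 calls for the difference of responses, beside 3298 and 3492 of 14693 genes. Leaving out 1 sample at a time gave 10 to 15 calls for croton oil in LC-DTA ears. In LC-DTR ears it gave 6 to 18 (18 without LC-DTR vehicle replicate 2). Between the genotypes it gave 17 to 27 after croton oil and 0 to 21 under vehicle. For the difference of responses it gave 2 to 7. Over all genes the calls numbered 7216 to 8916, 6419 to 7702, 6560 to 7915, 1781 to 3777 and 2214 to 3569 in this order. Under vehicle there were 2 calls without LC-DTA vehicle replicate 2 (2461 of all genes), 1 without LC-DTA vehicle replicate 3 (2093), 0 without LC-DTR vehicle replicate 2 (1781) and 21 without LC-DTR vehicle replicate 3 (3705), beside 3595 of all genes with all samples. For the difference of responses there were 2 without LC-DTA vehicle replicate 3 (2469 of all genes). There were also 2 without LC-DTR vehicle replicate 3 (2848) and 7 without LC-DTR vehicle replicate 2 (2907). The class difference for croton oil in LC-DTR ears was 0.19 to 1.25 under these fits, against 0.79 with all samples, and the lowest value came without LC-DTR vehicle replicate 3. Members that turned sign and passed did so without that sample: for croton oil in LC-DTR ears Irgm1 ranged from -0.39 to 0.47 and Iigp1 from -1.08 to 1.18, and under vehicle Gbp7 ranged from -0.44 to 0.58 and Irgm1 from -0.36 to 0.50. The cause was not tested. The replicate numbers were not taken to pair the samples: of 19 same-numbered correlations of deviations, 2 were over 0.1. Deviations from the means of such small groups cannot exclude a pairing. A fit with the replicate block called 12 members for croton oil in LC-DTA ears and 6 in LC-DTR ears. It called 22 between the genotypes after croton oil, 4 under vehicle and 4 for the difference of responses. Of all 14693 genes it called 7733, 6445, 7048, 2879 and 2660 in this order. A fit of only the compared groups gives no value for the difference of responses. The depth behind TPM is unknown, so counting error at low values could not be separated from other spread.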
